A study of Homo sapiens with 4 samples.

Results

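The extracellular protease genes and protease inhibitor genes of U251 cells were the 74 of 15575 genes in the count table whose symbols belong to the matrix metalloproteinases (MMP), the ADAM and ADAMTS metalloproteinases, the tissue inhibitors of metalloproteinases (TIMP) or the serpins, together with PLAU, PLAUR, PLAT and A2M. Of these, 51 were members of protease families or the receptor PLAUR (the protease side) and 23 were members of inhibitor families (the inhibitor side). Membership was set by gene symbol, so an active protease or inhibitor was not required of each gene. U251 is an established human glioblastoma (GBM) cell line. RNA-seq libraries were made from U251 cells that carried a pGreen control (Ctrl) or a knockdown of the arginine methyltransferase PRMT3 (PRMT3-KD), with 2 libraries per group. The study describes lentiviral control and PRMT3 short hairpin RNAs and harvest after 72 h, and the labels do not name the hairpin in each knockdown library. Drugs, animals and other genotypes were not part of the comparison, which asked how the transcriptome of these cells differs when PRMT3 is depleted.

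The libraries held 24804250 to 29756313 counts. PRMT3 itself was at 535 and 535 counts in Ctrl but at 77 and 45 after knockdown, giving a log2 change of -3.08 (SE 0.314, adjusted p = 0.0177 from the quasi-likelihood test of edgeR, Benjamini-Hochberg adjusted over 13172 genes). SE stands for the standard error of a log2 fold change. The 2 Ctrl libraries lay close to each other and the 2 PRMT3-KD libraries did not, with a chi-square per gene of 1.42 and 63.6, where 1 is the value of sampling noise. Nothing in the labels states that the libraries of a group came from separate cultures, so the p-values measure the spread between these libraries, which may be technical. Of the glioma markers, VIM, CD44, NES, TNC and SOX9 were abundant, S100B was low (56, 59, 49 and 80 counts) and CHI3L1 was at 0, 2, 0 and 0 counts. SOX9 was called lower in PRMT3-KD, at 244, 244, 146 and 164 CPM (counts scaled to library size). The glial marker GFAP was low, at 13.1 and 14.3 CPM in Ctrl and 1.26 and 5.39 in PRMT3-KD.

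Extracellular proteolysis in a glioma is run by a few connected systems. Plasminogen activators (PLAU, PLAT) turn plasminogen into plasmin, PLAUR holds PLAU at the cell surface, and serpins such as SERPINE2 trap these proteases in covalent complexes. MMPs cut matrix proteins, and TIMPs block them. MMP14 sits in the membrane and, together with TIMP2, activates the secreted proenzyme MMP2. ADAM proteases shed receptors and ligands from the cell surface, ADAMTS proteases cut proteoglycans such as brevican and versican, and A2M cages proteases of all classes. These genes are studied in glioblastoma because the tumor invades the brain matrix.

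Promoter sequences are shown for PLAUR and MMP7, which were higher in PRMT3-KD cells, and for MMP10, which lies in the same chromosome 11 cluster as MMP7 and MMP3. MMP and PLAUR promoters are known for sites of AP-1, the dimer of FOS and JUN proteins. The sequences are from RefSeq (GRCh38.p14), run from 250 bases before to 50 bases after the annotated start, and are written 5′ to 3′ on the strand of the gene, the minus strand in each case. Capitals mark the match to TGANTCA, a loose form of the AP-1 site that reads the same on both strands, where N is any base. The letters are TGAGTCA in MMP7 and PLAUR and TGAATCA in MMP10. The match starts 67 bases before the start of MMP7 (chr11:102530698-102530997), 186 bases before that of PLAUR (chr19:43670120-43670419) and 67 bases before that of MMP10 (chr11:102780579-102780878).
MMP7: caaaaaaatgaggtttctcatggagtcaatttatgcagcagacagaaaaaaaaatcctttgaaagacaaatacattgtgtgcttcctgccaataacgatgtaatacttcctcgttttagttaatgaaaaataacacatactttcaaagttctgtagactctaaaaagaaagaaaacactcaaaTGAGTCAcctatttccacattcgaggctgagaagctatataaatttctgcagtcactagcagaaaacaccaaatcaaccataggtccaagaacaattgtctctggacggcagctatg
PLAUR: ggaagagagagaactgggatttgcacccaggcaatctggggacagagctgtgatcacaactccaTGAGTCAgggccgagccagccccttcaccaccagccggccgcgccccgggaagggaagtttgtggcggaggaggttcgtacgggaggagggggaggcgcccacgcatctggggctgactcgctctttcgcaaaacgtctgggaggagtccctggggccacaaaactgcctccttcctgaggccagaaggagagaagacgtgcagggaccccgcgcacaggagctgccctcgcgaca
MMP10: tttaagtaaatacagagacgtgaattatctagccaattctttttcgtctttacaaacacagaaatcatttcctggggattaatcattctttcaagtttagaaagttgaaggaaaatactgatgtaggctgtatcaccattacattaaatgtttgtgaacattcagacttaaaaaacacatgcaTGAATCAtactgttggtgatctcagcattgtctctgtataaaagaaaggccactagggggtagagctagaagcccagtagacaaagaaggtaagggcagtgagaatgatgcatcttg
Of the 74 genes, 47 had a promoter in the RefSeq table, with 58 promoters in all, of which 10, from 9 genes, held the match. It occurs in 2707 of all 35116 promoters of this length (7.71%). Among the called genes described below, 7 had an entry, and MMP7, PLAUR and SERPINB7 held the match, whereas ADAM15, ADAM19, MMP14 and TIMP3 did not. The other carriers were ADAMTS12, MMP10, MMP20, SERPINB5, SERPINB8 and SERPINI2. In ADAMTS12, MMP10, MMP20, SERPINB5 and SERPINI2 the only match was TGAATCA. The hypoxia response core ACGTG was found in 17 of the 58 promoters, including those of MMP14 and PLAUR, and in 21.4% of all promoters. The SP1 box GGGCGG, which overlaps neither motif in its letters, was found in 36 of the 58 and in 45.0% of all promoters, counting both strands for each motif. A match is a description of the letters and was not measured as a binding site.

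Of the 74 genes, 54 passed the filter on low counts and were tested, 38 on the protease side and 16 on the inhibitor side. Of the 13 secreted MMPs in the table, 7 were too low in U251 cells to be tested. MMP1 had 2 and 1 counts in Ctrl and 5 and 0 in PRMT3-KD, and the gelatinase MMP9 had 0 and 0 in Ctrl, where a count of 0 allows up to 3 counts, and 4 and 1 in PRMT3-KD. MMP8, MMP10, MMP12, MMP13 and MMP20 were the others. The remaining untested genes were ADAM21, ADAMTS2, ADAMTS13, ADAMTS17, ADAMTS18, ADAMTS19, SERPINB1, SERPINB5, SERPINB10, SERPIND1, SERPINF1, SERPINF2 and SERPINI2. The highest count of any of these 20 genes in any library was 22, for MMP10 in PRMT3-KD library 1.

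Levels between genes were compared as CPM per kb of the canonical transcript. In Ctrl cells PLAU was at 240 CPM per kb (n = 2), followed by the membrane proteases ADAM9 (143) and ADAM19 (105) and the inhibitor TIMP2 (105). MMP14 (87.8), SERPINB6 (80.8), TIMP1 (80.2) and PLAUR (79.9) formed the next tier. The order of ADAM19 and TIMP2, and of SERPINB6, TIMP1 and PLAUR, did not differ beyond the spread of the Ctrl libraries. The order also depends on the transcript length chosen. In CPM without length, the Ctrl means of ADAM19 (683) and ADAM9 (587) were above that of PLAU (562). Of the 54 genes, 39 had a Ctrl mean of at least 1 CPM per kb and 20 of at least 10.

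**Figure D1:**
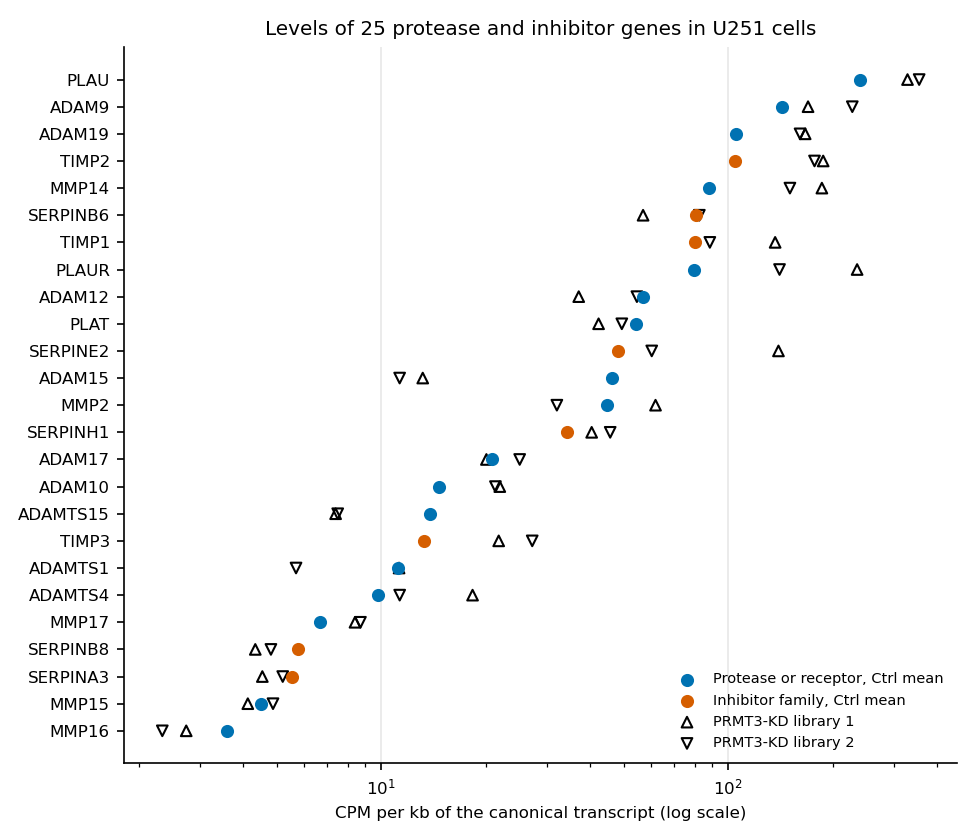
Levels of 25 protease and inhibitor genes of high Ctrl mean, in CPM per kb of the canonical transcript on a log scale. Filled circles are Ctrl means of 2 libraries (blue, proteases and PLAUR; orange, inhibitor families), and open triangles are the PRMT3-KD libraries (up, library 1; down, library 2). The triangles of TIMP2, MMP14, PLAUR and ADAM19 lie to the right of their circles while those of ADAM15 and ADAMTS15 lie to the left.

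A gene was called when its adjusted p was under 0.05 and its change over 1.5-fold. In all, 10 of the 54 genes were called, 8 higher and 2 lower in PRMT3-KD cells, which is 18.5% against 10.9% of all 13172 genes tested. The corresponding shares of all genes were 4.97% higher and 5.97% lower. On the protease side 6 of 38 were called, with PLAUR, MMP14, MMP7 and ADAM19 higher and ADAM15 and ADAMTS15 lower. On the inhibitor side 4 of 16 were called, with A2M, TIMP2, TIMP3 and SERPINB7 higher and 0 lower. At an unadjusted p under 0.05 and over 1.5-fold, edgeR gave 16 of the 54 genes (29.6%) and 16.9% of all genes. The median log2 fold change was 0.27 over the 54 genes, 0.21 on the protease side and 0.41 on the inhibitor side, against 0.0055 over all genes tested. In 37 of the 54 genes both PRMT3-KD libraries lay outside the range of the Ctrl libraries (24 above, 13 below), a pattern that 67.1% of all genes tested also showed.

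The calls were lost when either Ctrl library was left out, in fits where the spread comes from the 2 PRMT3-KD libraries alone. The log2 fold changes of the called genes kept their direction in these fits. That of ADAM15 was -1.95 without Ctrl library 1 and -1.88 without Ctrl library 2, against -1.92 with all libraries. That of A2M was 2.86 and 3.75, against 3.24. With Ctrl library 1 or Ctrl library 2 left out, edgeR called 0 genes of the whole table, with 1633 and 1653 genes at an unadjusted p under 0.05 and over 1.5-fold. Without PRMT3-KD library 1 or library 2, 16 and 19 protease genes and 6 and 9 inhibitor genes were called, beside 3066 and 2989 genes of the whole table, in fits where the spread comes from the 2 Ctrl libraries alone and the lone PRMT3-KD library is assumed to vary like them.

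**Figure D2:**
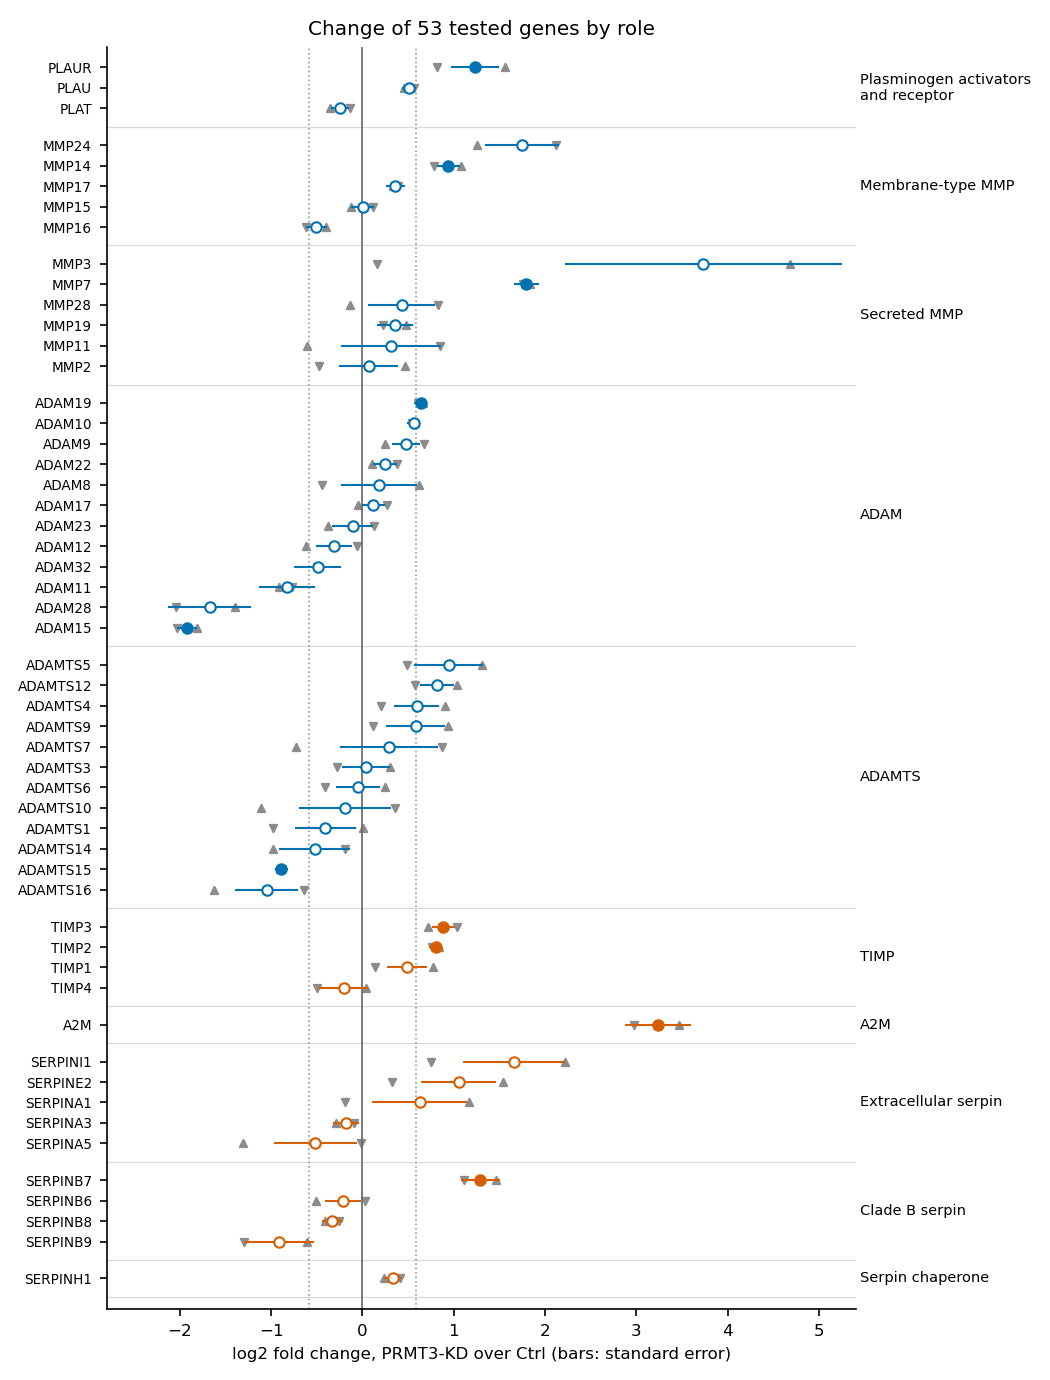
Log2 fold change of PRMT3-KD over Ctrl for 53 of the 54 tested genes, grouped by role, with bars of 1 standard error from edgeR. Filled circles are the 10 called genes, dotted lines mark 1.5-fold, and grey triangles give the log2 ratio of each PRMT3-KD library to the Ctrl mean (up, library 1; down, library 2). The bar of MMP3 is the widest, since its triangles lie far apart, and A2M lies farthest right among the called genes.

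Among the plasminogen activators and their receptor, only PLAUR was called. All 3 genes had PRMT3-KD values outside the Ctrl range, as did 67.1% of all genes tested. PLAUR (chromosome 19, 44150247 to 44174699, GRCh37) was at 109 and 109 CPM in Ctrl and 322 and 192 CPM in PRMT3-KD. Both knockdown libraries were above both Ctrl libraries, with library 1 well above library 2. The log2 change was 1.23 (SE 0.260, adjusted p = 0.0447, edgeR), and the call was lost when libraries were scaled by their totals only (adjusted p = 0.0604). PLAU, the urokinase bound by PLAUR, was at 569 and 555 CPM in Ctrl and 770 and 832 CPM in PRMT3-KD, with no overlap of the groups. Its log2 fold change of 0.51 (SE 0.0768, adjusted p = 0.0251, edgeR) passed the test but was under 1.5-fold. On the opposite strand, C10orf55 overlaps 31.0% of the PLAU exon bases, and without a stated strand setting their reads cannot be told apart. The count of C10orf55 itself was 62, 74, 35 and 39, against 15268 to 23646 for PLAU. The tissue activator PLAT was at 165, 167, 130 and 151 CPM in the Ctrl and then the PRMT3-KD libraries, giving a log2 change of -0.24 (SE 0.0996) that did not pass the test (adjusted p = 0.157, edgeR).

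Among the extracellular serpins, none of the 6 tested was called by edgeR. SERPINE2, also called protease nexin 1 and an inhibitor of thrombin and PLAU, was at 107 and 107 CPM in Ctrl and 311 and 134 CPM in PRMT3-KD. The high value came from PRMT3-KD library 1, and the log2 fold change of 1.06 had a standard error of 0.411 (adjusted p = 0.144, edgeR). Without library 1 it was 0.33. Of the other extracellular serpins, the neuronal SERPINI1 was at 3.54 and 2.51 CPM in Ctrl and 14.1 and 5.07 in PRMT3-KD (log2 fold change 1.66, SE 0.556, adjusted p = 0.107, edgeR). SERPINA1, SERPINA3 and SERPINA5 had log2 fold changes of 0.63, -0.18 and -0.51.

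Of the 5 membrane-type MMPs, MMP14 was called, and it was the most abundant of them. MMP14 (chromosome 14, 23305769 to 23318250) was at 319 and 331 CPM in Ctrl and 689 and 558 CPM in PRMT3-KD. The log2 change was 0.94 (SE 0.124, adjusted p = 0.0212, edgeR). The groups did not overlap, and the lower PRMT3-KD value was far above both Ctrl values. MMP24, at 2.09, 1.38, 4.13 and 7.53 CPM, showed a log2 change of 1.75 with a standard error of 0.404 and missed the threshold (adjusted p = 0.0531, edgeR). MMP16 was at 43.4 and 39.8 CPM in Ctrl and 31.7 and 27.0 CPM in PRMT3-KD, giving a log2 change of -0.50 (SE 0.118, adjusted p = 0.0541, edgeR). MMP17 and MMP15 had log2 fold changes of 0.36 and 0.0034.

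Among the 6 secreted MMPs tested, only MMP7 was called. MMP7, matrilysin (chromosome 11, 102391239 to 102401481), was counted 95 and 90 times in Ctrl against 303 and 323 times in PRMT3-KD. In CPM these were 3.43, 3.27, 11.9 and 11.4, and the libraries within each group nearly coincided. The log2 change was 1.80 (SE 0.141, adjusted p = 0.0142, edgeR). MMP2, the gelatinase activated by MMP14, was at 156 and 158 CPM in Ctrl and 217 and 113 CPM in PRMT3-KD. The knockdown libraries lay on opposite sides of Ctrl, and the log2 fold change was 0.07 (SE 0.320, adjusted p = 0.898, edgeR), turning to -0.48 without PRMT3-KD library 1. MMP11, MMP19 and MMP28 had log2 fold changes of 0.31 to 0.43. Of the 11 MMPs tested in both classes, 10 had a positive log2 fold change, against 6649 of all 13172 genes. Of the same 11, 2 were called (18.2%), against 10.9% of all genes tested. In 4 of the 11 (MMP2, MMP11, MMP15 and MMP28) the knockdown libraries overlapped the Ctrl range, as in 4334 of all 13172 genes.

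MMP3, stromelysin 1, was high in only 1 of the PRMT3-KD libraries. It was at 31 and 30 counts in Ctrl, 721 in PRMT3-KD library 1 and 35 in PRMT3-KD library 2. In CPM these were 1.12, 1.09, 28.4 and 1.23, so that 1 library carried the whole change and the other was at the Ctrl level. The log2 fold change of 3.73 had a standard error of 1.52 (adjusted p = 0.156, edgeR), and without library 1 it was 0.16. On the log2(CPM + 0.5) scale the knockdown libraries differed by 4.06 in MMP3, the widest difference among all 13172 genes. MMP3 lies in a cluster with MMP7, MMP20, MMP8, MMP10, MMP1, MMP12 and MMP13 on chromosome 11 (102391239 to 102826461). In the same cluster, MMP10 had 1 and 5 counts in Ctrl, 22 in PRMT3-KD library 1 and 1 in library 2, whereas MMP13 had 6, 2, 5 and 14 and MMP7 was at like levels in both knockdown libraries.

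**Figure D3:**
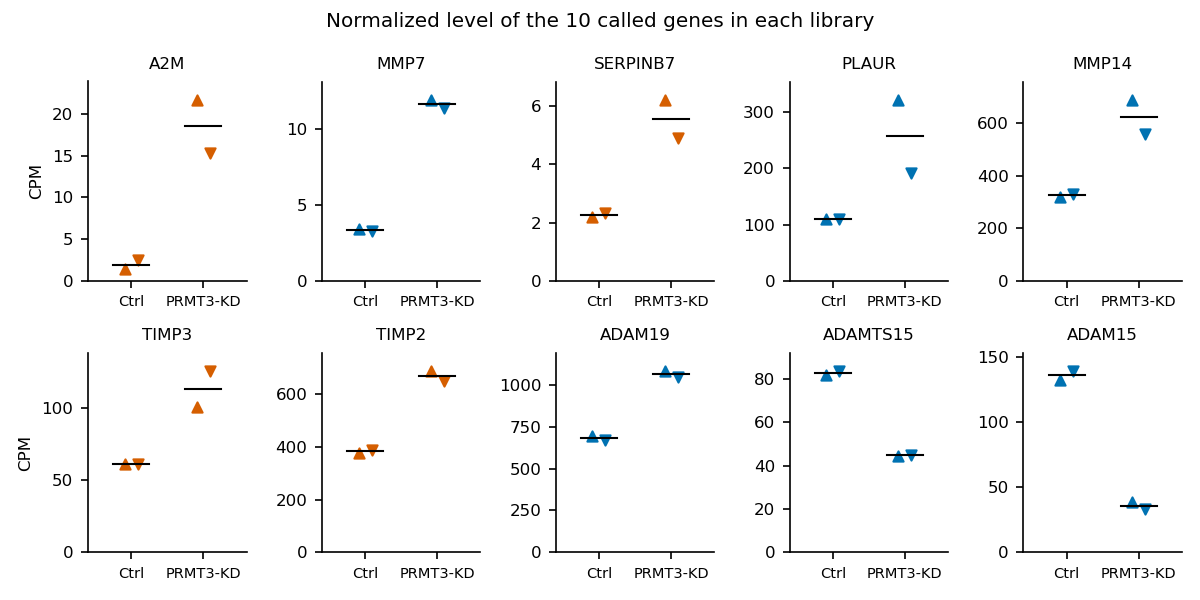
Normalized level in CPM (linear axes from 0, 1 scale per gene) of the 10 called genes in each library, with the mean of each group as a black line. Up triangles are library 1 and down triangles library 2 of a group, in blue for proteases and PLAUR and in orange for inhibitor families. The groups do not overlap in any of the 10 genes, which were called on these same libraries. Both PRMT3-KD libraries were outside the Ctrl range in 67.1% of all genes tested. PLAUR, with 322 and 192 CPM in PRMT3-KD, shows the widest separation of the knockdown libraries relative to its change.

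The 4 TIMPs were led by TIMP2 and TIMP3, which were called higher. TIMP2 (chromosome 17, 76849059 to 76921469) was at 378 and 388 CPM in Ctrl and 686 and 648 CPM in PRMT3-KD, giving a log2 change of 0.80 (SE 0.0728, adjusted p = 0.0156, edgeR). The groups were widely separated and the spread within each was small. CEP295NL, on the same strand, shares 3.61% of its exon bases and had 6, 6, 14 and 14 counts, against 10475 to 18405 for TIMP2. TIMP3, the matrix-bound TIMP that also inhibits ADAM10 and ADAM17 (chromosome 22, 33197691 to 33259028, within SYN3), was at 61.0 and 61.2 CPM in Ctrl and 100 and 125 CPM in PRMT3-KD. The log2 change was 0.89 (SE 0.128, adjusted p = 0.0241, edgeR). TIMP1 was at 59.4, 64.0, 105 and 68.1 CPM, with the high value in PRMT3-KD library 1 and a log2 fold change of 0.49 that did not pass the test (SE 0.224, adjusted p = 0.192, edgeR). TIMP4 was low, at 1.90 to 2.78 CPM.

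Ratios of protease to TIMP counts were taken within each library. MMP14 to TIMP2 was 0.845 and 0.853 in Ctrl and 1.005 and 0.861 in PRMT3-KD, so that both genes were higher by like amounts in library 2. MMP2 to TIMP2 was 0.413 and 0.408 in Ctrl and 0.316 and 0.174 in PRMT3-KD. For TIMP3, the ratio of ADAM17 to it went from 1.49 and 1.51 to 0.880 and 0.879, and that of ADAM10 from 2.65 and 2.72 to 2.45 and 1.90. With 2 libraries per group an exact permutation test of a single ratio cannot give a p under 0.05, and no test of the ratios was made.

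A2M, the protease-trapping macroglobulin, was the called gene with the largest change. A2M (chromosome 12, 9220260 to 9268825) was counted 38 and 70 times in Ctrl against 551 and 436 times in PRMT3-KD. These were 1.37 and 2.54 CPM against 21.7 and 15.4 CPM, and both knockdown libraries were far above the Ctrl libraries. The log2 change was 3.24 (SE 0.358, adjusted p = 0.0188, edgeR). A2M is also made by endothelial cells and pericytes. The libraries were made from U251 cells, an established cell line, and markers of those cell types were read as genes of this line. In bulk RNA, more cells that express a gene and more RNA per cell cannot be told apart. The summed level of the 3 endothelial markers in the table (CDH5, VWF and TIE1) was 7.51 and 7.63 CPM in Ctrl and 6.61 and 28.1 CPM in PRMT3-KD, with CDH5 at 5.05, 5.31, 5.08 and 25.4 CPM. The sum was above Ctrl in PRMT3-KD library 2 only. The summed level of the 5 smooth muscle and pericyte markers was 24.2, 23.7, 35.9 and 81.1 CPM, with MYH11 and DES at 18 counts or fewer. CNN1 was higher in both PRMT3-KD libraries (4.11, 4.29, 18.0 and 41.4 CPM), PDGFRB only in library 2 (15.9, 15.6, 11.9 and 35.9 CPM) and RGS5 only in library 1 (3.93, 3.45, 5.67 and 3.06 CPM). The part of these markers in the A2M result was not tested. The 3 microglia and macrophage markers in the table summed to 5.88, 5.89, 2.91 and 3.91 CPM.

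The clade B serpins are mostly intracellular, without a signal peptide. SERPINB7 was called and was counted 61 and 64 times in Ctrl against 158 and 139 times in PRMT3-KD, or 2.20, 2.33, 6.22 and 4.89 CPM. The log2 change was 1.29 (SE 0.214, adjusted p = 0.0302, edgeR), at a level of a few CPM. SERPINB6, the most abundant of the clade, was at 108, 105, 74.8 and 109 CPM (log2 fold change -0.21, SE 0.192, adjusted p = 0.474, edgeR), and library 2 was at the Ctrl level. SERPINB8 and SERPINB9 had log2 fold changes of -0.33 and -0.91 and were not called. SERPINH1, a collagen chaperone (HSP47) of the serpin fold that inhibits no protease, was at 70.7 and 70.2 CPM in Ctrl and 83.2 and 94.1 CPM in PRMT3-KD, giving a log2 change of 0.33 that did not pass the test (SE 0.0908, adjusted p = 0.0728, edgeR).

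The 12 ADAM genes tested held a call in each direction (16.7% called, against 10.9% of all genes tested). ADAM15, a membrane metalloproteinase with an integrin-binding disintegrin domain (chromosome 1, 155023042 to 155035251), was at 133 and 139 CPM in Ctrl and 38.7 and 33.2 CPM in PRMT3-KD. It fell by 1.92 on the log2 scale (SE 0.106, adjusted p = 0.0140, edgeR), the largest decrease among the called genes, and the knockdown libraries lay close together. ADAM19, which sheds neuregulins (chromosome 5, 156822542 to 157002783), was at 693 and 673 CPM in Ctrl and 1081 and 1045 CPM in PRMT3-KD, giving a log2 change of 0.64 (SE 0.0699, adjusted p = 0.0188, edgeR). The shedding enzyme ADAM10 was at 162 and 166 CPM in Ctrl and 245 and 238 CPM in PRMT3-KD, and its log2 fold change of 0.56 (SE 0.0684, adjusted p = 0.0201, edgeR) was under 1.5-fold. ADAM17, the sheddase of TNF and of EGF receptor ligands, was at 90.9, 92.1, 88.3 and 110 CPM, with values on both sides of Ctrl and a log2 fold change of 0.12 (SE 0.126, adjusted p = 0.547, edgeR) that turned to -0.06 without PRMT3-KD library 2. ADAM9 was at 588 and 586 CPM in Ctrl and 699 and 937 CPM in PRMT3-KD (log2 fold change 0.48, SE 0.157, adjusted p = 0.103, edgeR). ADAM12 was at 454 and 451 CPM in Ctrl and 295 and 433 CPM in PRMT3-KD, with the lower value in library 1. ADAM28, with 24 and 16 counts in Ctrl and 7 and 5 in PRMT3-KD, showed a log2 change of -1.67 and was not called (SE 0.452, adjusted p = 0.0710, edgeR). The median log2 fold change of the 12 genes was 0.0063.

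Of the 12 ADAMTS genes tested, only ADAMTS15 was called (8.33%, against 10.9% of all genes tested). ADAMTS15, a versican-cutting protease (chromosome 11, 130318540 to 130346540), was at 82.0 and 83.6 CPM in Ctrl and 44.4 and 45.0 CPM in PRMT3-KD. It fell by 0.89 on the log2 scale (SE 0.0715, adjusted p = 0.0142, edgeR), with very little spread in either group. ADAMTS1, another versican-cutting enzyme, was at 57.7 and 58.5 CPM in Ctrl and 58.4 and 29.5 CPM in PRMT3-KD, so that only library 2 was lower (log2 fold change -0.41, SE 0.334, adjusted p = 0.433, edgeR). ADAMTS16, at 9.67, 9.56, 3.11 and 6.16 CPM, showed a log2 change of -1.05 (SE 0.345, adjusted p = 0.104, edgeR). ADAMTS12, at 10.1, 10.6, 21.2 and 15.5 CPM, had one of 0.82 (SE 0.186, adjusted p = 0.0514, edgeR), close to the threshold. The aggrecanase ADAMTS4 was at 97.9, 94.2, 179 and 111 CPM, giving a log2 change of 0.59 that did not pass the test (SE 0.244, adjusted p = 0.159, edgeR). The log2 fold changes of the 12 genes ran from -1.05 to 0.95, with 6 above and 6 below 0.

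The protease and inhibitor genes differed between the knockdown libraries more than the table as a whole. On the log2(CPM + 0.5) scale the median absolute difference between the PRMT3-KD libraries was 0.44 over the 54 genes and 0.22 over all genes tested, while that between the Ctrl libraries was 0.0568 and 0.0510. Grouped by mean level, the values were 0.48 against 0.34 under 5 CPM, 0.47 against 0.22 from 5 to 50 CPM and 0.32 against 0.18 at 50 CPM and over. A difference over 1 was found in 7 of the 54 genes (13.0%), namely MMP3, SERPINI1, SERPINE2 and SERPINA1, higher in library 1, and ADAMTS7, ADAMTS10 and SERPINA5, higher in library 2, against 452 genes of the table (3.43%). These shares are descriptions, without a test. Extracellular serpins made up 4 of the 7.

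**Figure D4:**
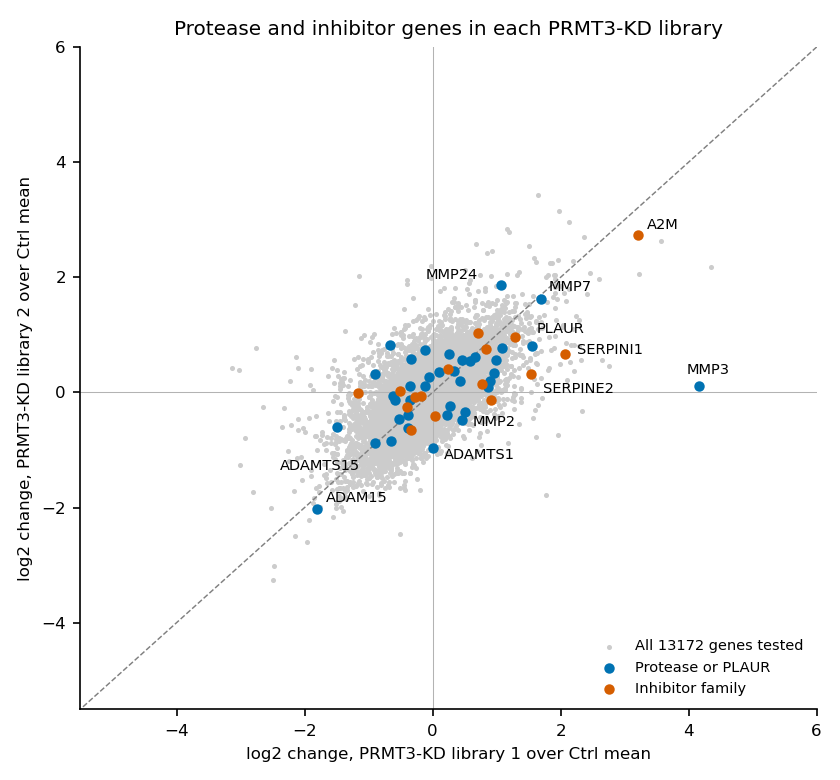
Log2 change of each gene in PRMT3-KD library 2 (vertical) against library 1 (horizontal), each over the Ctrl mean on the log2(CPM + 0.5) scale, with the dashed line where both are equal. Grey points are all 13172 genes tested, blue points proteases and PLAUR, orange points inhibitor families, and both axes share the same Ctrl libraries. MMP3 lies alone at the right near 0 on the vertical axis, A2M, MMP7 and ADAM15 lie near the dashed line, and MMP2 and ADAMTS1 lie below it.

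Genes that act with these proteases were read from a separate list of 64 genes in the table (coagulation and membrane serine proteases, cathepsins and cystatins, proprotein convertases, clearance receptors and regulators of MMPs and ADAMs). Of these, 48 were tested and 7 (14.6%) were called, 4 higher and 3 lower, with a median log2 fold change of 0.26, against 10.9% of all genes tested and a median of 0.0055. F3, tissue factor, the initiator of coagulation, was at 70.0 and 69.5 CPM in Ctrl and 166 and 186 CPM in PRMT3-KD, giving a log2 change of 1.34 (SE 0.0890, adjusted p = 0.0140, edgeR). RECK, a membrane-anchored inhibitor of MMPs, was at 23.8, 23.7, 43.2 and 52.6 CPM (log2 fold change 1.01, SE 0.126, adjusted p = 0.0202, edgeR). FURIN, the convertase that activates MMP14 and many ADAMs, was at 243, 249, 516 and 398 CPM (log2 fold change 0.89, SE 0.143, adjusted p = 0.0284, edgeR). In each of these 3 genes both PRMT3-KD libraries were above both Ctrl libraries, as in 4392 of all 13172 genes tested.

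The cathepsin inhibitor CSTB rose to a smaller degree (log2 fold change 0.61, adjusted p = 0.0207, edgeR), a call that was lost with library totals only, where its change was 0.58 and under 1.5-fold. The called decreases were LRP8, a receptor of the LDL receptor family, at 112, 121, 56.7 and 39.1 CPM (log2 fold change -1.29, adjusted p = 0.0262, edgeR), ADAMTSL1, an ADAMTS-like matrix protein without protease domain, at 25.7, 26.5, 11.2 and 13.5 CPM (log2 fold change -1.08, adjusted p = 0.0198, edgeR), and the low TMPRSS5, at 87, 69, 16 and 29 counts (log2 fold change -1.76, adjusted p = 0.0371, edgeR). The cathepsin gene CTSB, the thrombin receptor gene F2R and the secreted serine protease gene HTRA1 passed the test with log2 fold changes of 0.58, 0.50 and 0.41, all under 1.5-fold. LRP1, the receptor that clears A2M and serpin complexes, was at 36.4, 38.2, 32.5 and 73.4 CPM, with the high value in PRMT3-KD library 2 only (log2 fold change 0.51, SE 0.398, adjusted p = 0.412, edgeR).

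The 7 bases CAGCTCA were picked from 3′ untranslated regions of genes with large decreases in these data. Their share among lower genes and the fold changes of their carriers are therefore descriptions that the choice itself favors. The 7 bases were more frequent in these regions of genes called lower (33.9%) than in those of all 12619 tested genes with such a region of at least 50 bases (17.5%) or of genes called higher (11.1%). Of the 54 protease and inhibitor genes, 11 (20.4%) carried them, 8 of these 11 with a negative log2 fold change. Their median log2 fold change was -0.33, against 0.35 in those without. Over all genes tested, 1329 of the 2214 carriers had a negative value, and the medians were -0.11 and 0.03. None of the 10 called genes carried them, ADAM15 and ADAMTS15 included. The regions of the called genes ran from 115 bases (A2M) to 3664 (TIMP3), with ADAM15 at 273. Those of the 11 carriers ran from 879 bases (SERPINA5) to 9450 (MMP16). A short region has less room for the 7 bases, and these shares and medians do not account for length.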

How the data were processed

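RNA-seq was analysed in 4 U251 libraries, 2 Ctrl and 2 PRMT3-KD, grouped by their titles. The table that the authors deposited gives raw read counts per gene as whole numbers. Per the labels and the study's methods the reads were aligned to hg19 with TopHat and counted with Cufflinks, and the study used DESeq2. Versions, annotation, strand setting and any gene filter are not given in the sources used here.

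From the 15576 entries, 1 duplicate was removed. Low genes were removed with filterByExpr (minimum count 10, minimum total 15) in edgeR 4.0.16 (R 4.3.3). TMM scaling and the quasi-likelihood F-test followed, with Benjamini-Hochberg adjustment over 13172 genes. SE is the absolute log2 fold change divided by the square root of F. CPM is on the TMM scale, and values are given in the order Ctrl 1, Ctrl 2, PRMT3-KD 1, PRMT3-KD 2. With total counts of 24804250 to 29756313, genes of few counts are the least precise. Transcript lengths, positions and 3′ untranslated regions are from GENCODE 44 lifted to GRCh37, which holds 15560 of the 15575 identifiers. Promoters are from RefSeq and were searched on both strands.

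The genes and lists were chosen with earlier results of these data known. Named genes are every called gene, the best known genes of each system, and the highest gene per kb in each role, and further genes were named after their values were seen (MMP3, MMP16, MMP24, SERPINI1, ADAM12, ADAM28, ADAMTS4, ADAMTS12, ADAMTS16 and those given only by a change or a low count). Alternatives were DESeq2 1.42.0, limma-voom (limma 3.58.1) with group weights, RLE, upper-quartile or no scaling beyond totals, 2 other count filters, the replicate number as a block, other fold thresholds and leaving out each library. The fits were also run on simulated counts with equal and unequal spread, where the only pass rule was the error of the log2 fold change. Recovered and false calls had no pass rule and are not given here. The values of 1 tested gene, which is part of the counts and medians, are not reported here.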

Additional observations from a re-analysis of the deposited data

How the results depend on the processing

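Of the 10 called genes, 9 were called at 1.5-fold in every fit other than those that left out a library, and PLAUR was lost with library totals only (adjusted p = 0.0604, edgeR). Over leaving out each library in turn, the called protease genes numbered 0 to 19 against 6, the called inhibitor genes 0 to 9 against 4 and the called genes of the separate list 0 to 21 against 7, with 0 for either Ctrl library. At over 2-fold, 3 protease and 2 inhibitor genes remained. The share of all genes past that threshold was not taken, so these counts have no background beside them. DESeq2 called 9 protease, 6 inhibitor and 10 listed genes and limma-voom 9, 6 and 6 (1834 and 1690 genes of the whole table, against 1441). The other scalings and filters called 5 to 7, 4 and 6 to 8, beside 1275 to 1456 genes of the whole table. SERPINE2, ADAMTS12, ADAMTS16, MMP24 and SERPINI1, not called by the edgeR fit, were called by DESeq2 (adjusted p of 0.0095, 0.0066, 0.0297, 0.0016 and 0.0063) and by limma-voom (0.0304, 0.0185, 0.0449, 0.0221 and 0.0439). TMPRSS5 was lost with limma-voom (adjusted p = 0.0887) and CSTB with library totals, where its log2 fold change of 0.58 was under 1.5-fold.

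Across genes, the deviations of libraries with the same replicate number had a correlation of 0.0222. The Ctrl libraries differed by little more than sampling noise (chi-square per gene of 1.42), so a low correlation could arise with or without pairing. This check therefore cannot show whether the replicate numbers pair the libraries. With the number as a block, edgeR called 7 protease, 5 inhibitor and 8 listed genes, beside 1464 genes of the whole table. ADAMTS12 and SERPINI1 then passed the threshold, and MMP2 turned from 0.07 to -0.0055. MMP2 also turned to -0.015 with limma-voom. Leaving out 1 library was run gene by gene for 40 named genes, 5 of which turned direction, none of them called, with ranges of -0.48 to 0.46 for MMP2, -0.055 to 0.27 for ADAM17, -0.98 to 0.0025 for ADAMTS1, -0.51 to 0.034 for SERPINB6 and -0.20 to 0.98 for LRP1. The causes were not tested. Over all genes, the share of calls that were higher was 45.5%, and 40.9% with library totals only. Depth limits the 20 untested genes and those at a few CPM.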

Other observations

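After MMP3, the genes highest in PRMT3-KD library 1 relative to library 2 included SCG2, a secretory granule protein, with 161 and 165 counts in Ctrl and 1085 and 236 in PRMT3-KD. The neuropeptide precursor VGF had 39, 25, 197 and 23 counts, and the pentraxin PTX3 had 116, 158, 300 and 69. The long non-coding RNA UCA1 had 7, 17, 462 and 104 counts, with both knockdown libraries above Ctrl. Also among them were FAM220A (4, 171, 168 and 3 counts), PVRIG2P (25, 0, 70 and 0) and EIF3CL (12, 0, 39 and 0). In FAM220A, PVRIG2P and EIF3CL the Ctrl libraries differed from each other as well. These genes were picked by the size of the difference between 2 libraries, and no test was made of it.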
